A study of Mus musculus and Homo sapiens with 23 samples.

Results

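The genes described here encode 44 proteins of mitosis and the spindle, listed by name and role, of 21597 genes measured. The list was drawn up with earlier results of these data known. Their RNA was quantified in BV2 cells, a mouse microglial line that was immortalised and divides in culture, in 1 library after 3 h of lipopolysaccharide (LPS, the endotoxin of Gram-negative bacteria) and 1 library of unstimulated cells. The labels give neither the LPS dose nor how many cultures stood behind a library. The series follows H2BK20ac, an acetylation mark on histone H2B, through cell types and through the LPS response, and its 21 chromatin and input samples were not analysed here. The deposited unit is FPKM, fragments normalised for transcript length and for the size of the library, so levels can be set side by side between genes.

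Mitosis is driven by cyclin-dependent kinase 1 with its A- and B-type cyclins, and by the Polo-like and Aurora kinases. Kinetochores tie chromosomes to spindle microtubules, and the spindle checkpoint holds back the anaphase-promoting complex (APC/C) until every chromosome is attached. The APC/C then destroys securin and cyclin B, separase opens the cohesin rings, and the spindle midzone guides cytokinesis. Many of these genes are transcribed periodically, with a peak in G2 and M phase, and are repressed in resting cells through the DREAM complex and the retinoblastoma family. Treatment with LPS is known to slow the proliferation of macrophages in culture.

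All 44 genes matched deposited rows, 59 rows in all, each with estimation status OK in both libraries. The 9 genes with several transcript rows were summed. Counted genes are those with 1 FPKM or more in either library, which 43 of the 44 reached. The exception was Cenpf, at 0.155 FPKM after LPS and 0.905 FPKM unstimulated. Changes are given on the log2(FPKM + 1) scale, as LPS minus unstimulated. A gene is called lower or higher when the change is at least 1 in size, and the pseudocount of 1 understates changes of genes with low FPKM. With 1 library a group there is no replicate check and no p-value, and every difference is between these 2 libraries. Brackets after an FPKM or a ratio hold a 95% interval from the deposited bounds, which covers counting and fragment assignment inside a library only. The deposited bounds imply a median of 184 fragments a member after LPS (30 to 5509) and 545 unstimulated (40 to 4932). As a check of the cell type, the 9 macrophage and microglial markers measured were all counted, with sums of 5898 and 5979 FPKM after LPS and unstimulated, and Tyrobp stood at 3064 and 4128 FPKM. Of these 9, 1 gene, the transcription factor Spi1, was called higher, at 707 and 217 FPKM. Of 25 markers of other brain, stromal and lymphoid cells, 2 were counted. These were the endothelial Kdr (4.79 and 5.45 FPKM) and the lymphoid Il7r (0.591 and 1.77 FPKM). The defining neuronal Rbfox3, astrocytic Gfap and lymphoid Cd3e were listed at 0 in both libraries, and the 5 neuronal markers summed to 0.171 and 0.0300 FPKM.

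Most mitotic genes had less RNA after LPS, to very different extents, and 1 gene rose. Of the 43 counted members, 23 were called lower, 53.5%, against 12.4% of all 10035 counted genes. Another 19 stayed within the rule, and 1, the securin gene Pttg1, was called higher, against 8.55% of all counted genes. All 23 lower calls also had separate intervals, as did lower calls of 12.3% of all counted genes. The change was below 0 for 40 of the 43 members, against 64.2% of all counted genes. The members' median change was -1.05 (-2.26 to 1.58), beside -0.24 over all counted genes. Without a pseudocount, the median ratio of FPKM after LPS to FPKM unstimulated was 0.382, and 31 of the 44 members lay below a ratio of 0.5. The 2 deposited intervals were separate for 42 members, 40 with less and 2 with more FPKM after LPS. Kif4 and Cdc25c were the members whose intervals overlapped. Intervals can be separate at a small difference, as for Bub3 at a ratio of 1.06. The shares of all counted genes with separate intervals or a ratio below 0.5 were not computed, so these counts have no background. In bulk RNA, fewer cells in G2 and M phase and less of these RNAs in each such cell cannot be told apart.

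**Figure D1:**
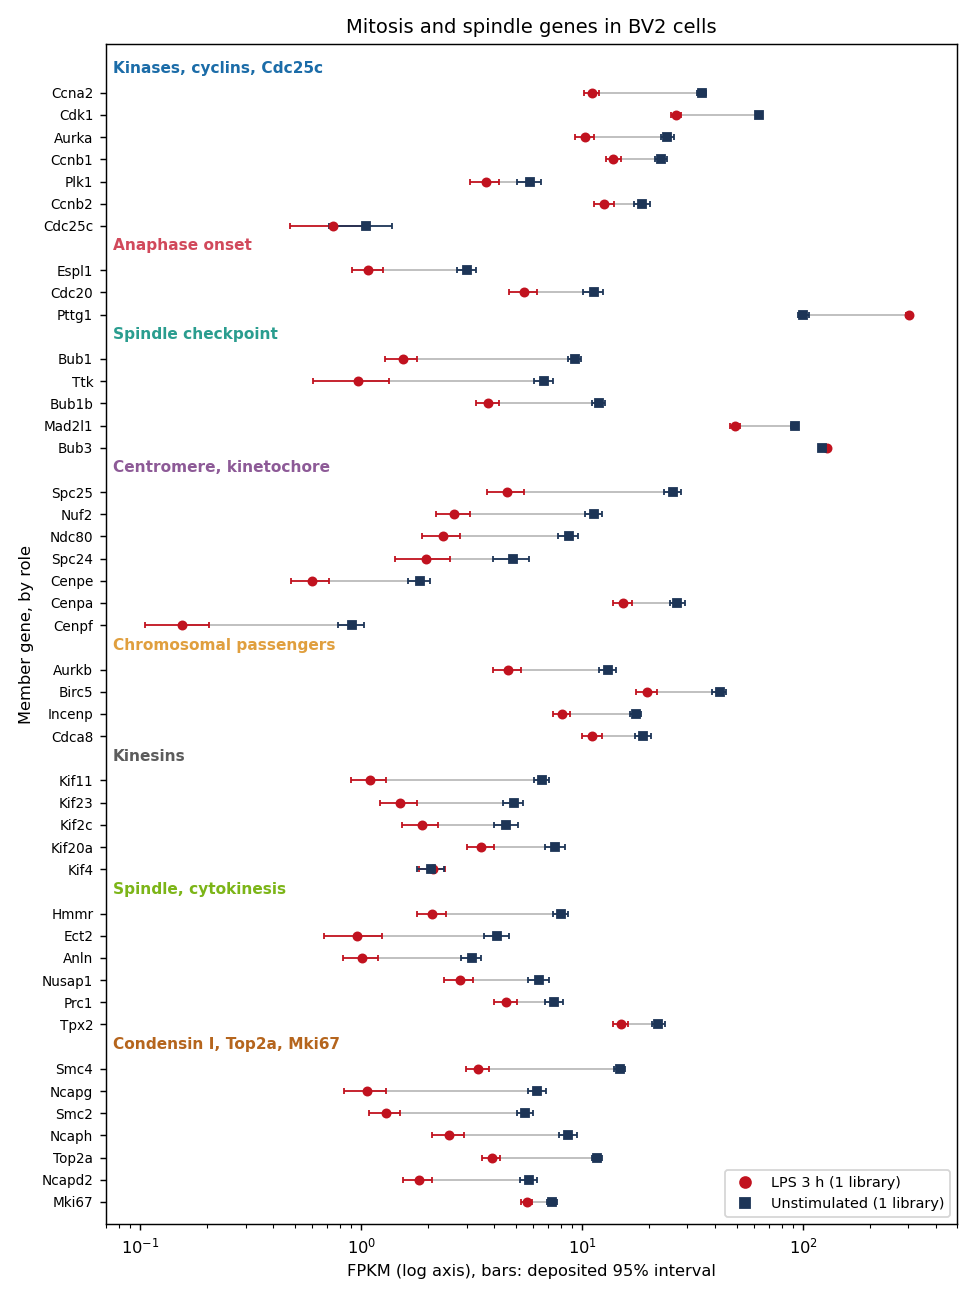
FPKM of the 44 members on a log axis, grouped by role and ordered by change within a role. Circles are the LPS library, squares the unstimulated library, and bars the deposited 95% intervals. Nearly every circle lies left of its square, Pttg1 lies to the right at 302 against 100.4 FPKM, and the symbols of Bub3 and Kif4 almost coincide.

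The choice of scaling moved the median of all counted genes, by 0.24 with median scaling, by -0.24 on rescaling to TPM and by 0.11 with quantile normalisation. Relative to that median, the members' median stood at -0.81 as deposited and at -0.79, -0.83 and -0.82 under these scalings. The members called lower numbered 18, 32 and 20 of 43 in that order, against 788, 2280 and 841 of all 10035 counted genes. Over all genes, lower calls made up 59.3% of calls as deposited, against 40.8%, 75.2% and 47.0%. Pttg1 was the member called higher under each of them. Of the 23 members called lower, Ccna2, Bub1, Nuf2, Spc25 and Smc4 kept the call under all 9 alternatives tried. With a pseudocount of 5 the call was lost for 17 of the others, and Cdk1 lost it with median scaling (-0.93). Median scaling also ended the calls of Aurka (-0.90), Birc5 (-0.77), Incenp (-0.77) and Anln (-0.89). Quantile normalisation ended those of Incenp (-0.96), Kif23 (-0.92), Anln (-0.70) and Ncapd2 (-0.95). Closest to the line were Incenp (-1.03), Birc5 (-1.05) and Anln (-1.05) inside it and Spc24 (-0.98), Nusap1 (-0.96) and Espl1 (-0.95) outside it.

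**Figure D2:**
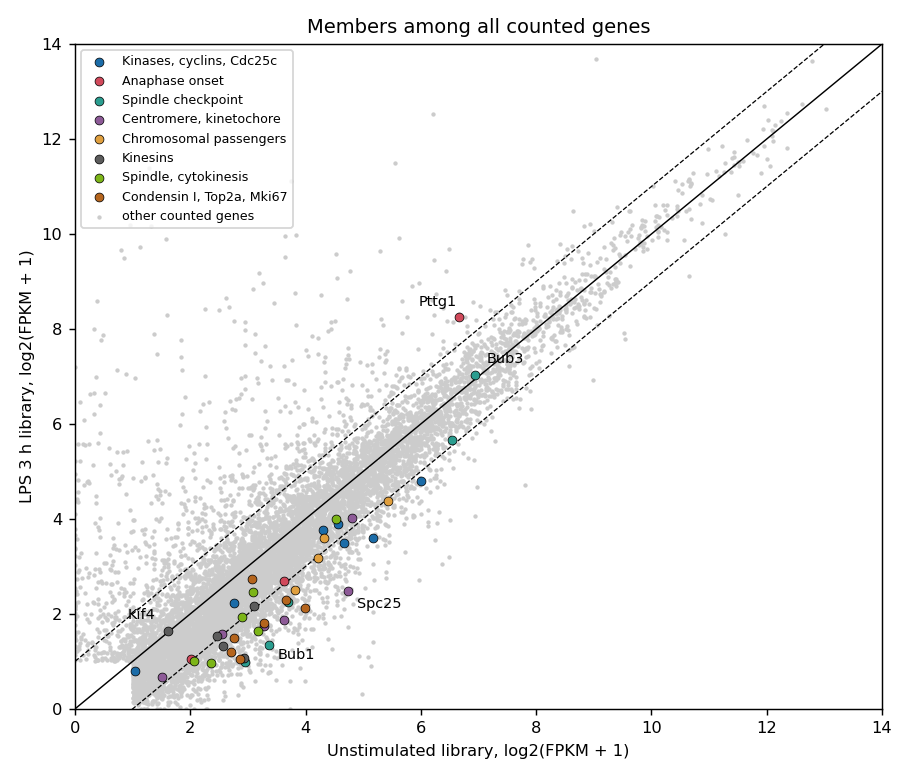
Level of each counted gene in the LPS library (vertical axis) against the unstimulated library (horizontal axis), both as log2(FPKM + 1). Grey points are all counted genes, coloured points the 43 counted members by role, the solid line is equality and dashed lines mark the size rule. Members spread from Pttg1 above the upper dashed line to Spc25 and Bub1 well below the lower one.

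Promoters of mitotic genes are known for a shared architecture, in which CCAAT boxes bound by NF-Y stand upstream of a cell cycle genes homology region (CHR), the element that MuvB complexes such as DREAM and B-Myb-MuvB bind. RefSeq promoter windows of build GRCm38.p6, running from 250 bases before to 50 after a transcript start, were found for 36 of the 44 members, and 3 of these had more than 1 window. The words TTTGAA and TTCGAA were searched for the CHR and CCAAT for the other box, on both strands. A CHR word and a CCAAT box can overlap by at most 1 base, and TTCGAA, which reads alike on both strands, was counted once. A CHR word stood in a window of 28 of the 36 members (77.8%), against 16.4% of the 8001 other counted genes with a window and 21.7% of all 27025 genes with one. CCAAT stood in 27 of 36 (75%), against 43.0% of the other counted genes and 41.1% of all. Both were found in 25 members (69.4%), against 6.74% and 8.61%. In 25 members a CHR word began between 60 bases before and 50 after the start. The share of other genes with a CHR word in this stretch was not computed, so that count has no background. The arrangement was not confined to the members. Among 97 other mitotic genes with a window the CHR share was 49.5%, the CCAAT share 58.8% and the share with both 33.0%. Among 29 replication genes with a window the CHR share was 20.7% and the CCAAT share 65.5%. These are matches of letters and not bound sites.

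The windows of 6 members are printed 5′ to 3′ in the direction of the gene, in lower case with CHR words and CCAAT boxes of either strand in capitals. They show the arrangement in the kinase gene Cdk1, in a cyclin gene with a small change (Ccnb2), in the 3 members with the largest falls (Spc25, Bub1 and Ttk) and in a member whose level was alike in both libraries (Kif4).
Cdk1, chr10:69352863-69353162, minus strand: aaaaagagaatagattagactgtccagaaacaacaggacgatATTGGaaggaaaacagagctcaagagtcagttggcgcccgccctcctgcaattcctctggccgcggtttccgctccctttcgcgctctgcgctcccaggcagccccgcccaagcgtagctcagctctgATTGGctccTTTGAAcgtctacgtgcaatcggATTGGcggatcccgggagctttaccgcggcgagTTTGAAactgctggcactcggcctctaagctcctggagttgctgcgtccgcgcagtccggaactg
Ccnb2, chr9:70421505-70421804, minus strand: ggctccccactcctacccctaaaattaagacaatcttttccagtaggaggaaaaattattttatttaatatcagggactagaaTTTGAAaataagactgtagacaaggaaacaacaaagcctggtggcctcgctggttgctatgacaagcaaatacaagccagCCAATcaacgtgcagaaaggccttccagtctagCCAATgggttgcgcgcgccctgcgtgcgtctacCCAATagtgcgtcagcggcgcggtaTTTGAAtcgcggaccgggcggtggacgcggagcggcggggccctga
Ttk, chr9:83834439-83834738, plus strand: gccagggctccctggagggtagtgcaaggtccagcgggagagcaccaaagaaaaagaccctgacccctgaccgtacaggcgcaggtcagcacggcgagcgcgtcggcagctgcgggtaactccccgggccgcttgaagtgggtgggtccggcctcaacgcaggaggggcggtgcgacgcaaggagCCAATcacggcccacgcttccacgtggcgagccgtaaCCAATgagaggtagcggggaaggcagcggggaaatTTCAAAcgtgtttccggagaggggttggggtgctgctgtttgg
Bub1, chr2:127831810-127832109, minus strand: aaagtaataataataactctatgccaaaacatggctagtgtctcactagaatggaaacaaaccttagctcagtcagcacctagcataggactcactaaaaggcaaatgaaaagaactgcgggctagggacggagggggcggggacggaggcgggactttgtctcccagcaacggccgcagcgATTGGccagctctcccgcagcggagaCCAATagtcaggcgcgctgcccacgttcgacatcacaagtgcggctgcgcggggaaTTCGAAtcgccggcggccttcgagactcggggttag
Spc25, chr2:69206164-69206463, minus strand: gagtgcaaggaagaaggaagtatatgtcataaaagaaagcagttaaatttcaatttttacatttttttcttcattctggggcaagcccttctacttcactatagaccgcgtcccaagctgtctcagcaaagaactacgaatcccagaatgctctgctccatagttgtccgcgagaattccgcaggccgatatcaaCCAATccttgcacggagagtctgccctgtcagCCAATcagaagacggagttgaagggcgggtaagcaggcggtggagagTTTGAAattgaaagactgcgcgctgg
Kif4, chrX:100625815-100626114, plus strand: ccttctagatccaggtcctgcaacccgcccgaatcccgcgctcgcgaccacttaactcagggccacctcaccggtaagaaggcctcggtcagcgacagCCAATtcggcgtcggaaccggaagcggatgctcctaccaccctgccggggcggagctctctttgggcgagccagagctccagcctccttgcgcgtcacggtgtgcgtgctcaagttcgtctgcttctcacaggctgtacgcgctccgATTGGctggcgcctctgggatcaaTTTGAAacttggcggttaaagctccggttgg

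Each of these 6 windows, which were picked as examples, held at least 1 CHR word near the start. At least a pair of CCAAT boxes stood upstream of it. In Ccnb2 the boxes began 87, 54 and 21 bases before the start and the proximal CHR at base 5 after it. In Spc25 the boxes began 55 and 23 bases before and the CHR at base 25, and in Ttk 65 and 28 bases before with the CHR at base 8 on the other strand. Bub1 carried the TTCGAA form, beginning at base 15. Kif4 had the CHR at base 20, with boxes that began 152 and 5 bases before the start. Over the 27 counted members with a CHR word, changes ran from -2.26 to 0.09 with a median of -1.21, and 16 were called lower. Over the 8 counted members whose windows held none (Ccnb1, Pttg1, Mad2l1, Cenpe, Nuf2, Birc5, Nusap1 and Ncaph), changes ran from -1.76 to 1.58 with a median of -0.92, and 3 were called lower. The window of Pttg1 held neither motif, but the gene lies on the minus strand and the upper ends of its deposited rows, where transcription starts, are 267 bases apart, and whether the window belongs to the row with nearly all of the FPKM was not determined.

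**Figure D3:**
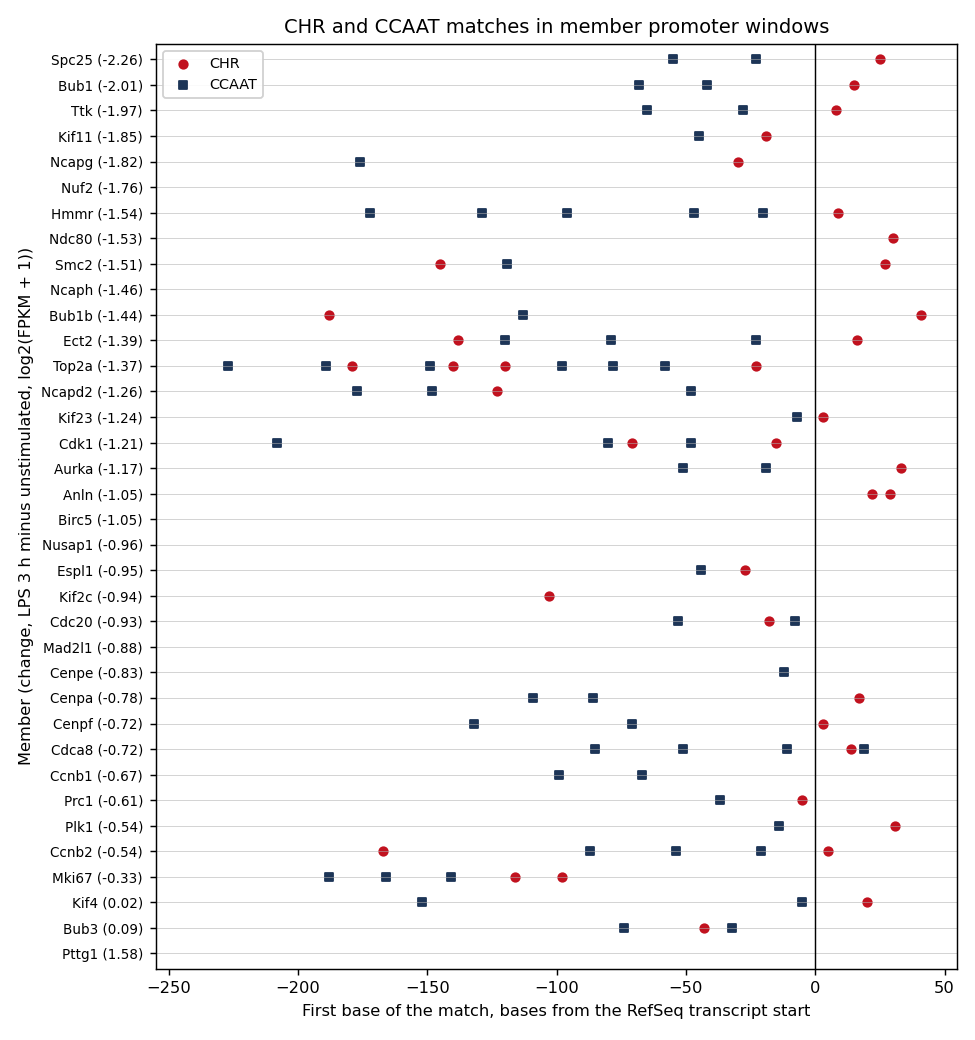
Distance of each CHR match (circles) and CCAAT match (squares) from the RefSeq transcript start, in bases, for the 36 members with a promoter window, ordered from the largest fall at the top. Where a member has several windows the first by coordinate is drawn. Most circles sit within 60 bases before to 50 after the start at every size of change, and 8 members have no circle.

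Among the cyclins and kinases of mitotic entry, 3 of 7 were called lower, and the median change was -0.67 (-1.57 to -0.23). For this and every following role, the share to set beside the count is the 12.4% of all counted genes called lower. With 3 to 7 genes a role, these counts do not rank the roles. Ccna2, the cyclin of S phase and early mitosis (mm9 chr3:36463787-36470918), was at 11.1 FPKM (10.2 to 11.9) after LPS and 34.8 (33.3 to 36.4) unstimulated, 3.15-fold lower (2.88 to 3.45). The 2 B-type cyclins, which act later, differed less: Ccnb1 was at 13.9 FPKM after LPS and 22.7 unstimulated (1.64-fold, 1.48 to 1.81), and Ccnb2 at 12.6 and 18.7 (1.49-fold, 1.30 to 1.70). The interval of the fold for Ccna2 lay above those of both B cyclins. Unstimulated, Ccna2 was the most abundant of the 3 cyclins. After LPS it had the lowest FPKM of the 3, but its interval overlapped that of Ccnb2 (11.3 to 13.9). Cdk1, their catalytic partner (mm9 chr10:68799383-68815660), was the most abundant kinase gene in both libraries, with 26.7 FPKM (25.4 to 28.0) after LPS and 63.1 (61.0 to 65.1) unstimulated, a 2.36-fold fall. Aurka, the kinase of centrosome maturation, fell to 10.3 FPKM after LPS, against 24.4 unstimulated. Plk1, the Polo-like kinase that acts beside it, was within the rule at 3.66 and 5.78 FPKM. The phosphatase gene Cdc25c, which activates Cdk1, had the smallest change of the group, at 0.749 FPKM (0.475 to 1.02) after LPS and 1.05 (0.717 to 1.38) unstimulated. It rests on 30 and 40 implied fragments, its intervals overlapped, and the sign of its change turned to 0.10 with quantile normalisation.

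The 3 genes of anaphase onset went in both directions. Pttg1, which encodes securin, the inhibitor and chaperone of separase (mm9 chr11:43233750-43239750), rose to 302 FPKM (292 to 311) after LPS, against 100.4 (94.5 to 106) unstimulated, a ratio of 3.00 (2.81 to 3.21). It was already the second most abundant member in unstimulated cells, after Bub3, and it was the most abundant after LPS. The row NM_001131054 held 99.7% of the FPKM after LPS and 99.5% unstimulated. Its change lay between 1.31 and 1.87 under the alternatives tried. Espl1, the separase that securin holds inactive, was at 1.08 FPKM (0.908 to 1.25) after LPS and 3.02 (2.73 to 3.31) unstimulated, 2.80-fold lower (2.32 to 3.37), with a change of -0.95 that missed the rule at these low levels. The APC/C activator gene Cdc20 was at 5.46 and 11.3 FPKM, a change of -0.93. Both Espl1 and Cdc20 passed the rule with a pseudocount of 0.1 and on rescaling to TPM. Pttg1 weighed heavily in any sum of the members. All 44 together held 699 FPKM after LPS and 835 unstimulated, whereas without Pttg1 they held 397 and 734, and without Pttg1 and Bub3 268 and 613.

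Spindle checkpoint genes differed widely in their changes. Of 5, 3 were called lower, with a median change of -1.44 (-2.01 to 0.09). Bub1, the kinase that recruits checkpoint proteins to kinetochores (mm9 chr2:127625936-127657595), was 5.99-fold lower (5.01 to 7.18) after LPS. Ttk, the Mps1 kinase that starts checkpoint signalling (mm9 chr9:83728296-83765997), was at 0.968 FPKM (0.606 to 1.33) after LPS and 6.73 (6.05 to 7.40) unstimulated. Its fold of 6.95 (4.72 to 10.2) was the largest of the 44 members, with 37 implied fragments in the LPS library. The lesser of its 2 rows held 30.5% of its FPKM after LPS and 0.00176% unstimulated. Its implied fragments therefore also depend on how fragments were assigned between these rows. The change of Ttk lost the rule with a pseudocount of 5 (-0.97). Bub1b, the BubR1 subunit of the mitotic checkpoint complex, fell to 3.75 FPKM after LPS, against 11.9 unstimulated. Mad2l1, the Mad2 subunit that binds Cdc20, was at 49.3 and 91.7 FPKM, within the rule as deposited (-0.88) and past it on TPM (-1.13) and with quantile normalisation (-1.06). Bub3 (mm9 chr7:138703905-138715412), the scaffold that carries Bub1 and BubR1, was at 129 FPKM (125 to 132) after LPS and 121 (118 to 125) unstimulated. Its change of 0.09 turned to -0.16 on TPM and -0.17 with quantile normalisation, and was 0.38 with median scaling. Bub3 stood 83.7 times above Bub1 in FPKM after LPS and 13.1 times above it unstimulated.

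Among 6 counted kinetochore genes, 3 were called lower, all of them in the Ndc80 complex, the rod of 4 subunits that grips microtubules. Spc25 (mm9 chr2:69031952-69044247) had the largest change of all members on the log2(FPKM + 1) scale, -2.26. It was at 4.59 FPKM (3.72 to 5.47) after LPS and 25.8 (23.5 to 28.0) unstimulated. Its fold of 5.62 (4.55 to 6.93) was smaller than those of Ttk, Kif11, Bub1, Ncapg and Cenpf. Nuf2 fell to 2.64 FPKM after LPS, against 11.3 unstimulated, and Ndc80 fell to 2.34, against 8.68. The fourth subunit, Spc24, was at 1.97 (1.42 to 2.51) and 4.85 (3.97 to 5.73) FPKM, a change of -0.98 that passed the rule on TPM. Levels of the 4 subunits, which occur in equal number in the complex, spanned 1.97 to 4.59 FPKM after LPS and 4.85 to 25.8 unstimulated. Spc25 was the highest and Spc24 the lowest of them in both libraries. Cenpa, the histone H3 variant that marks centromeres, had the smallest change of the group (-0.78), at 15.3 and 27 FPKM. The centromere kinesin Cenpe was at 0.598 and 1.84 FPKM. Its large fold of 3.08 (2.46 to 3.86) gave a change of only -0.83 because of the pseudocount, as did that of the uncounted Cenpf (5.84-fold, 4.13 to 8.28), a large protein of the outer kinetochore.

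The 4 genes of the chromosomal passenger complex had changes in a narrow band, between -1.32 and -0.72, and 3 were called lower. Aurkb, its kinase, fell to 4.62 FPKM (3.95 to 5.30) after LPS, against 13.0 (11.9 to 14.2) unstimulated. The survivin gene Birc5 was at 19.8 and 41.9 FPKM, the inner centromere scaffold Incenp at 8.10 and 17.5, and borealin, Cdca8, at 11.1 (9.96 to 12.3) and 18.9 (17.4 to 20.5). Birc5 was the most abundant and Aurkb the least abundant of the 4 in both libraries. Of these calls, only that of Aurkb held under every scaling, and it too was lost with a pseudocount of 5 (-0.91).

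Among 5 mitotic kinesins, 2 were called lower, with a median of -0.94 (-1.85 to 0.02). Kif11, the Eg5 motor that pushes spindle poles apart (mm9 chr19:37450893-37496349), was at 1.10 FPKM (0.896 to 1.30) after LPS and 6.59 (6.08 to 7.10) unstimulated, 6.0-fold lower (4.91 to 7.33). Its call was lost with a pseudocount of 5 (-0.93). Kif23, the motor of the centralspindlin complex in cytokinesis, fell to 1.51 FPKM, against 4.90 unstimulated. Kif20a, a midzone kinesin, was at 3.50 and 7.56 FPKM, and the microtubule depolymerase Kif2c at 1.88 and 4.54. Both missed the rule narrowly (-0.93 and -0.94) and passed it on TPM. The chromokinesin Kif4 (mm9 chrX:97821404-97922610) stood apart, with 2.11 FPKM (1.82 to 2.39) after LPS and 2.07 (1.78 to 2.36) unstimulated. Its ratio of 1.02 has an interval of 0.837 to 1.24, which does not reach the ratios of the other 4 kinesins (0.167 to 0.463), and its sign turned on TPM (-0.17). In the deposited coordinates 5 members overlap another gene of 1 FPKM or more. Kif20a overlaps Cdc23 by 1595 bases and Brd8 by 187, and Ccna2 overlaps Exosc9, at 14.8 FPKM after LPS and 21.8 unstimulated, by 863 bases. The overlaps of Nusap1 with Oip5, Ncapg with Lcorl and Cdc20 with Elovl1 span 208, 105 and 16 bases. The sources used here do not say whether counting used strand.

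Spindle assembly and cytokinesis genes were called lower in 3 of 6 cases, with a median of -1.0 (-1.54 to -0.54). Hmmr, which organises microtubules at spindle poles, fell to 2.10 FPKM (1.79 to 2.42) after LPS, against 8.05 (7.42 to 8.68) unstimulated. The RhoA activator Ect2 fell to 0.959 FPKM, against 4.14, and its partner in the contractile ring, anillin (Anln), to 1.01, against 3.16. The midzone bundler Prc1 was at 4.54 and 7.48 FPKM and the microtubule-associated Nusap1 at 2.80 and 6.40, both within the rule. Tpx2, which activates Aurka on the spindle (mm9 chr2:152673700-152721057), had the smallest change, -0.54, with 14.9 FPKM (13.8 to 16.1) after LPS and 22.2 (20.7 to 23.6) unstimulated. Its 5 rows held different shares in the 2 libraries. NM_001141978 was at 0.0871 FPKM (0 to 0.175) after LPS and 6.34 (5.34 to 7.34) unstimulated, while NM_001141975 was at 3.84 (3.04 to 4.63) and 0.000395 (0 to 0.0234). NM_001141976 held the largest share in both, 60.1% and 56.1%. The rows share 1 locus, so this split rests on Cufflinks' assignment of fragments between overlapping transcripts.

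Condensin genes fell together. All 5 subunits of condensin I, the ring that compacts mitotic chromosomes, were called lower, with a median of -1.51 and a range of -1.85 to -1.26. The ATPase subunit Smc4 (mm9 chr3:68808894-68838545) fell to 3.39 FPKM after LPS, against 14.8 unstimulated, and its partner Smc2 to 1.30, against 5.52. Ncapg, a HEAT-repeat subunit, was 5.89-fold lower (4.66 to 7.44), the other HEAT-repeat subunit Ncapd2 3.16-fold (2.66 to 3.75) and the kleisin Ncaph 3.45-fold (2.85 to 4.17). With a pseudocount of 5, Smc4 alone of the 5 kept its call. Top2a, the topoisomerase that untangles sister chromatids, fell to 3.90 FPKM, against 11.7 unstimulated. Mki67, which coats mitotic chromosomes and whose protein is the proliferation marker Ki-67, had the smallest change in this role, -0.33, at 5.62 FPKM (5.31 to 5.93) after LPS and 7.34 (6.97 to 7.71) unstimulated. Its fold of 1.31 (1.21 to 1.41) lay below those of Top2a (3.00, 2.69 to 3.34) and of all 5 condensin subunits.

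**Figure D4:**
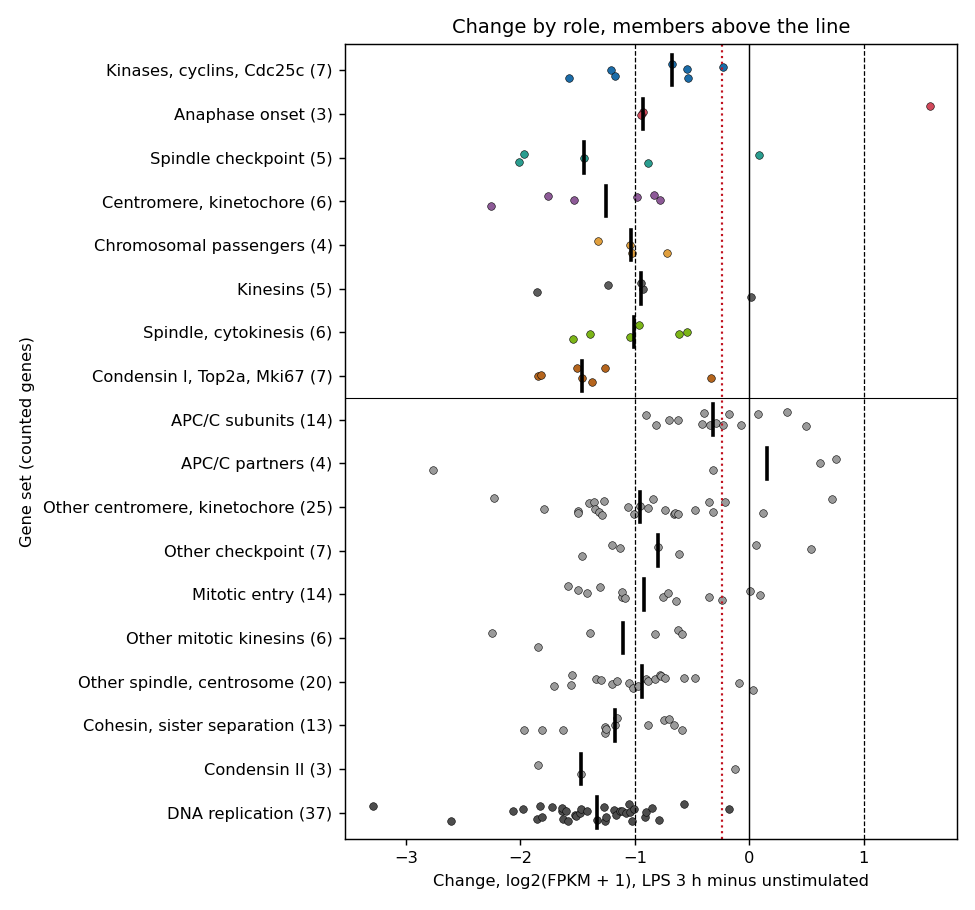
Change of each counted gene, LPS 3 h minus unstimulated, on the log2(FPKM + 1) scale, for the 8 roles of the members (above the horizontal line) and for other mitotic and DNA replication genes. Short bars are set medians, dashed lines the size rule, and the dotted line the median of all counted genes (-0.24). APC/C subunits lie around the dotted line, while condensin and replication genes lie mostly left of the lower dashed line. Checkpoint genes lie on both sides of the lower dashed line.

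The members differ in locus and in level, and their list was drawn up with earlier results of these data known. They lie on 16 chromosomes. Across the 43 counted members, the change and the length of the locus had a Spearman's rho of -0.33. Across all 10035 counted genes it was -0.12. Among the members longer loci tended to have larger falls, but Kif4, with the longest locus, had a change of 0.02. The level in unstimulated cells bore little relation to the change, with rho of 0.03 in the members and 0.04 in all counted genes. These values describe genes of the same pair of libraries, and locus length, transcript length and FPKM precision go together. After LPS 12 members stood at 10 FPKM or more, against 20 unstimulated, and 5 stood below 1 FPKM, against 1.

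Other mitotic genes were measured beside the 44. Over all counted genes, 12.4% were called lower and 8.55% higher. Of 106 counted genes in a list of other mitotic components, 45 were called lower, 42.5%, and 0 higher, with a median of -0.83. The largest fall was that of Fbxo5, the APC/C inhibitor Emi1, to 1.41 FPKM after LPS, against 15.3 unstimulated (-2.76). Next was the midzone kinesin Kif20b, at 0.720 FPKM after LPS and 7.19 unstimulated. Of 13 cohesin and sister separation genes 8 were called lower, as were 12 of 25 other centromere and kinetochore genes, 7 of 14 mitotic entry genes and 2 of 3 condensin II genes. In the APC/C itself, 0 of its 14 subunits were called in either direction, with a median of -0.32 (-0.90 to 0.49), beside -0.24 over all counted genes. The APC/C coactivator gene Fzr1 (Cdh1) was at 10.5 and 5.82 FPKM, a change of 0.76, and the ubiquitin-conjugating enzyme genes of the APC/C, Ube2c and Ube2s, were at 92.3 and 115 FPKM and at 227 and 148 FPKM, the 3 being named after their values were seen. Of 37 DNA replication genes, 31 were called lower, 83.8%, and 0 higher, with a median of -1.34. Their largest falls were those of the licensing inhibitor Gmnn (-3.29), the G1/S cyclin Ccne2 (-2.61) and the thymidine kinase Tk1 (-2.07).

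Of 23 counted regulators of the mitotic programme, 8 were called lower, 34.8%, against 12.4% of all counted genes. Another 2 were called higher, 8.70%, a share near the 8.55% of all counted genes. Mybl2, the B-Myb subunit that turns MuvB into an activator, fell to 11.3 FPKM after LPS, against 37.7 unstimulated (-1.65). The E2F partner Tfdp1 fell to 15.5, against 57.4, and E2f1 to 5.36, against 18. Foxm1, the forkhead factor of G2 and M genes, was at 1.71 and 4.17 FPKM, 2.44-fold lower (2.02 to 2.94). Its change of -0.93 missed the rule at these low levels. The 2 genes called higher were Cdkn1a, the p21 inhibitor of cyclin-dependent kinases, at 397 and 25.5 FPKM, and Trp53, the p53 gene that activates it, at 101 and 43.8 FPKM.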

How the data were processed

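The authors deposited, for each of the 2 RNA libraries, a table of FPKM values with lower and upper bounds. Cufflinks and build mm9 are named in the submitters' processing notes, while versions, the aligner and the strand setting go unnamed in the sources used here. Per the labels' protocols, reads were 76 bases long from a strand-specific kit. Each table held 28246 rows, of which 97.6% were named through RefSeq accessions of GRCm38.p6, a build used for names and promoter windows only. Rows not of status OK in both libraries (391) and rows of small RNA genes (704) were left out, rows of a symbol were summed, unnamed rows kept their ID, and bounds were combined in quadrature. Deposited loci are printed 1-based. Fragments behind a value are (2 × FPKM / half-width) squared, 16910799 in all after LPS and 13792533 unstimulated. Analysis used Python 3.11.15 with pandas 2.3.3, and was checked on simulated data. Named genes are all members, the 3 largest falls and rises past the rule among other mitotic, regulator and replication genes, and Foxm1, Mybl2 and Cdkn1a, while Fzr1, Ube2c and Ube2s were added after their values were seen. Of the genes this rule names, 1 gene outside the members is not reported here. Members and lists were chosen with earlier results of these data known. The alternatives were pseudocounts of 0.1 and 5, filters at 0 and 5 FPKM, 3 scalings, rows of any status, and the highest row of each symbol alone.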

Additional observations from a re-analysis of the deposited data

How the results depend on the processing

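With a pseudocount of 5, calls of lower numbered 6 members, 10 other mitotic genes, 20 replication genes and 354 of all genes, and the median change was -0.66 for the members, -0.78 for the kinetochore genes and -0.50 for the spindle and cytokinesis genes. With a pseudocount of 0.1, 2061 genes were lower and the anaphase median was -1.03. On TPM the anaphase median was -1.2 and 2280 genes were lower. With median scaling the members' median was -0.79, 788 genes were lower, and 2 other mitotic genes were higher, where 0 had been. Quantile normalisation left 29 other mitotic genes lower, and a filter at 5 FPKM left 28. That filter turned the anaphase median to 0.33, because it removes Espl1 and leaves 2 genes. CCAAT on the gene's own strand alone was found in 17 of 36 members (47.2%), against 25.6% of other counted genes. Of 378 values of single members under the alternatives, 335 kept their side of the rule, 26 lost a call, 17 gained one and 0 called members changed sign. Apart from what the construction shows, the cause of these shifts was not tested. With 1 library a group, leaving out a library was not possible. No paired analysis was possible because each group holds 1 library. In the LPS library Cdc25c, Ttk and Cenpf had the fewest implied fragments of the members, which for Ttk also reflects assignment between its rows.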
